A study of Mus musculus with 6 samples.

Results

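The 7 genes described here encode the first steps of steroid synthesis, from cholesterol entry into mitochondria to progesterone: Star, Tspo, Cyp11a1, Fdx1, Fdxr, Hsd3b1 and Hsd3b6. They were chosen by symbol from a table of 18280 genes, all 7 were found, and all 7 had enough reads to be among the 14124 genes tested. Whole-ovary RNA was sequenced from 3 transgenic mice with the genotype label Dennd1aTG (TG below) and 3 wild-type animals (WT below). Every animal of either genotype was given PMSG (pregnant mare serum gonadotropin), which engages FSH receptors and stimulates antral follicles, and the tissue dates from 44 h after that injection. The strain, the age, the promoter of the transgene and the number of founder lines are not given in the labels. The study's title concerns how Dennd1a affects the response of granulosa cells to FSH.

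Steroid synthesis starts when cholesterol crosses to the inner mitochondrial membrane, a step carried by the steroidogenic acute regulatory protein Star and held to limit the rate of acute hormone output. There the cytochrome P450 Cyp11a1 cuts the side chain of cholesterol to give pregnenolone, with electrons handed on from NADPH by ferredoxin reductase (Fdxr) and ferredoxin (Fdx1). The 3beta-hydroxysteroid dehydrogenases, of which the mouse has several paralogues, turn pregnenolone into progesterone. In the ovary, theca and interstitial cells, granulosa cells of large follicles and luteal cells carry this machinery, and gonadotropins acting through cAMP and the orphan nuclear receptors Nr5a1 and Nr5a2 sustain it.

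Total estimated counts ran from 17075484 to 17763323 in TG libraries and from 17106719 to 18516171 in WT libraries. Expression of the targeted gene, as counts scaled to library size (CPM, with TMM factors), was 570, 582 and 588 for Dennd1a in TG libraries 1 to 3, against 44.6, 39.5 and 49.3 in WT libraries 1 to 3. No library went against its genotype label. Markers of ovarian cells were present in every library, with Foxl2, which defines granulosa cells, at 213 to 225 CPM in TG and at 206 to 219 CPM in WT. The adrenal gland is another source of these transcripts near the ovary. Of 9 adrenal markers, 4 were tested and summed to 13.5 to 20.6 CPM in TG libraries and 13.2 to 19.4 CPM in WT libraries. Among those too low to test, the 21-hydroxylase gene Cyp21a1 had 6 to 11 counts in TG libraries and 1 to 37 in WT libraries, and the ACTH receptor gene Mc2r had 0 to 7 in TG and 1 to 10 in WT. The fat gene Adipoq had 245 counts in TG 2 and at most 26 in any other library, and summed CPM of 8 smooth muscle markers, which the ovary itself also expresses, was 1375 to 1634 in TG libraries and 1292 to 2150 in WT libraries, highest in WT 3.

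The side-chain cleavage enzyme and the main 3beta-HSD were the most abundant transcripts per length in every library. By FPKM, a level scaled to transcript length and sequencing depth and the unit to which the authors' second set of values corresponds, Cyp11a1 ranked 1 and Hsd3b1 ranked 2 among 18280 genes in 6 of 6 libraries, ahead of the translation factor Eef1a1. Cyp11a1 had 7402, 7531 and 8190 FPKM in TG libraries 1 to 3, against 7717, 8508 and 7345 FPKM in WT libraries 1 to 3. Hsd3b1 had 6161, 6876 and 6726 FPKM in TG, against 6163, 6877 and 6513 FPKM in WT. The margin over Eef1a1 was narrow for Hsd3b1, at 1.01 to 1.17 times in TG and 1.05 to 1.10 times in WT. Together the 7 genes held 2.44% to 2.73% of all counts in TG libraries and 2.46% to 2.95% in WT libraries.

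The start regions of these leading transcripts are shown with that of Hsd3b6, the paralogue at the bottom of the range. Whether these sequences bear on the levels was not tested. RefSeq windows (GRCm38.p6, the assembly that mm10 denotes) from 250 bases before to 50 after a start were at hand for 5 of the 7 genes, and the genes without one were Star and Tspo. Cyp11a1 had 2 such windows on the plus strand. The one at chr9:58014702-58015001 is printed because it holds matches, and the upstream one, chr9:57997774-57998073, holds none of the motifs searched. The upstream window contains the start of the gene's annotated span, at 57998024. Which start these ovaries use was not tested. The other printed windows are chr3:98859745-98860044 for Hsd3b1 and chr3:98814394-98814693 for Hsd3b6, both on the minus strand. Each is written 5′ to 3′ along its gene, and capitals mark, on either strand, AGGTCA (the core that Nr5a1 and Nr5a2 bind), the GATA motif AGATAA and the TATA motif, searched as TATAA.
Cyp11a1: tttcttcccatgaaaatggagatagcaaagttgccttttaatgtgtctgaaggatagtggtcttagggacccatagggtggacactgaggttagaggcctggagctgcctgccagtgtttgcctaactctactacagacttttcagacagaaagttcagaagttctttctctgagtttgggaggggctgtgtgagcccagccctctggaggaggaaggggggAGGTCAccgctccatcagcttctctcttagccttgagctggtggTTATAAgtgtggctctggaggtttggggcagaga
Hsd3b1: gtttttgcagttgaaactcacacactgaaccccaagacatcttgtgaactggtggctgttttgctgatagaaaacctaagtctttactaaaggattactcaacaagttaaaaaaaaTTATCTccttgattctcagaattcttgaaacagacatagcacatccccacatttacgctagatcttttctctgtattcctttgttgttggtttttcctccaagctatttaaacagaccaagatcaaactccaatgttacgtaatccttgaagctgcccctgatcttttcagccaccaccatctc
Hsd3b6: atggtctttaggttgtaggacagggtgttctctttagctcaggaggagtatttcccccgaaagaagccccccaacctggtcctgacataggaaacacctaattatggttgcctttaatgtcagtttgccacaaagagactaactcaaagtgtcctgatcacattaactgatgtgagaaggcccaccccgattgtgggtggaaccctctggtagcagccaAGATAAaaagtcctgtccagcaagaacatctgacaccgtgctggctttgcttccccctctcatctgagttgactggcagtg
The Cyp11a1 window holds AGGTCA at position -28 from its annotated start, on the plus strand, counted from 1 at that start, and TATAA at position 18, which overlaps a match on the other strand at position 17. Hsd3b1 holds AGATAA at position -134 on the other strand, and Hsd3b6 holds it at position -31 on the gene's own strand. Neither 3beta-HSD window holds the Nr5a core or the TATA motif, and the upstream Cyp11a1 window, not printed, also lacks both. None of the printed windows holds the cAMP response element, searched as TGACGTCA. The extended form of the Nr5a core, CAAGGTCA, is in none of them either. Of all 32851 windows of this length, 16.3% hold the Nr5a core and 1.56% its extended form, counting either strand. The GATA motif is in 11.2%, the TATA motif in 24.9% and the cAMP response element in 1.79%. Single matches of the short motifs are thus common, and a match is not evidence of a bound site.

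The 7 genes spanned a wide range of levels, and their order was nearly fixed. Ranked by mean FPKM over the 6 libraries, Cyp11a1 stood at 7782, Hsd3b1 at 6553, Fdx1 at 793.8, Star at 507, Fdxr at 273.3, Tspo at 94.58 and Hsd3b6 at 2.53 FPKM. Each gene exceeded the next in 6 of 6 libraries, with the exception of Fdx1 and Star. That pair kept the order in 5 of 6, since in library WT 2 Star was above Fdx1. Cyp11a1 exceeded Hsd3b1 by only 1.10 to 1.25 times within a library, whereas Fdx1 lay below Hsd3b1 by 7.53 to 8.78 times. The ferredoxin transcript was far below that of the P450 which ferredoxin serves. The ratio of Fdx1 to Cyp11a1 in FPKM was 0.0975, 0.121 and 0.105 in TG libraries, against 0.0909, 0.0958 and 0.103 in WT libraries.

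**Figure D1:**
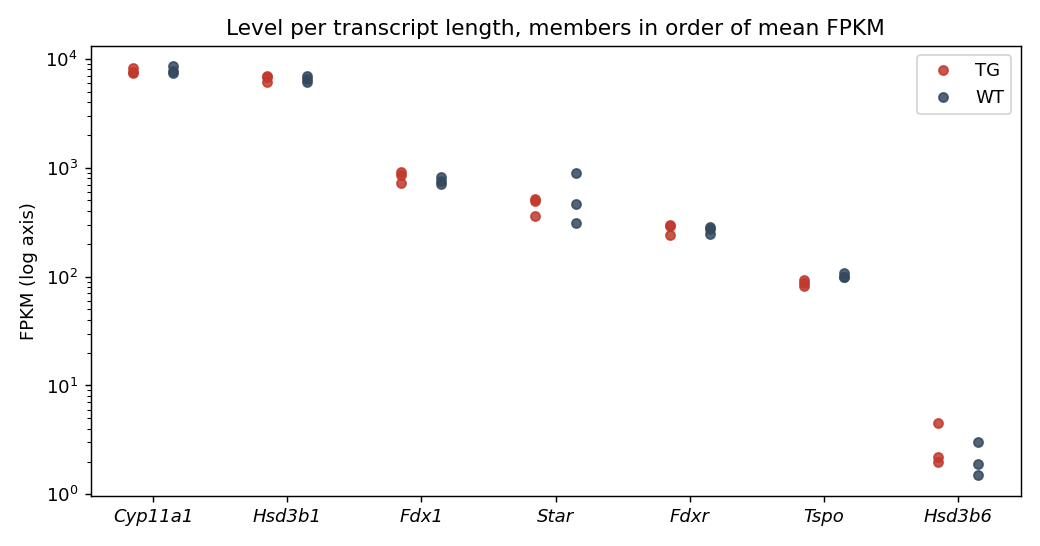
Level of the 7 genes per transcript length. The vertical log axis gives FPKM, each point is a library, and TG libraries stand left of WT libraries. Cyp11a1 and Hsd3b1 lie at 6161 FPKM or above in all libraries, Hsd3b6 lies below 5, and Star in WT 2 (894.7 FPKM) stands above Fdx1.

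No difference between genotypes in the 7 genes passed the test over all genes. In edgeR's quasi-likelihood test with Benjamini-Hochberg adjustment 0 of 7 passed an adjusted p of 0.05, while 1.05% of all tested genes did (0.0354% higher and 1.02% lower in TG). Tspo alone, 1 of 7, had an unadjusted p under 0.05, against 4.08% of all tested genes (3.14% with lower values in TG). DESeq2 and limma-voom also called 0 of 7. Log2 fold changes, TG over WT, ran from -0.29 for Star to 0.44 for Hsd3b6 with a median of 0.01, and the median over all tested genes was 0.00. In tissue made of many cell types, fewer cells of a type and less RNA per cell cannot be told apart.

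Star, the cholesterol carrier (chromosome 8, 25808474 to 25815982, plus strand), was the gene with the most uneven level among the abundant members. It measured 1372, 1921 and 1976 CPM in TG libraries 1 to 3, against 1193, 3463 and 1776 CPM in WT libraries 1 to 3. WT 2 was far above all other libraries and WT 1 was the lowest, so the TG values lay inside the WT range. TG averaged 1756 ± 334 CPM and WT averaged 2144 ± 1179 CPM (SD, n = 3 each). The edgeR log2 fold change was -0.29 with an SE of 0.33 (95% interval -1.02 to 0.45, adjusted p = 0.9997). The direction came from WT 2: without that library the log2 fold change was 0.24, and exact permutation of mean log2 CPM over all libraries gave a two-sided p of 0.9, where 0.1 is the smallest value 3 against 3 can give. The spread of Star within genotypes, an SD of 0.59 on the log2 scale, was larger than that of 99.6% of the 2278 genes with a mean of at least 100 CPM, whose median SD was 0.11. Over the 6 libraries its SD was 0.53, and 0.32 without WT 2.

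Tspo, an outer mitochondrial membrane protein that binds cholesterol and whose part in import is debated (chromosome 15, 83563573 to 83574203, plus strand), was the only member whose libraries did not overlap. It measured 54.6, 64.2 and 59.8 CPM in TG libraries and 67.6, 74.1 and 68.9 CPM in WT libraries. Every TG value was below every WT value, with a gap of a few CPM between the highest TG library and the lowest WT library. Such groups without overlap were found for 8.25% of all tested genes and for 1 of these 7. TG averaged 59.5 ± 4.81 CPM and WT averaged 70.2 ± 3.44 CPM (SD, n = 3 each). In edgeR this was -0.24 on the log2 scale with an SE of 0.09 (95% interval -0.44 to -0.04), at an adjusted p over all genes of 0.892. The unadjusted p was 0.0241 and the two-sided exact permutation p was 0.1, the smallest possible. Macrophages also express Tspo. All 16 of 16 myeloid markers had log2 fold changes below 0, with a median of -0.57, and 10 had an unadjusted p under 0.05. At the adjusted threshold 0 of them passed in edgeR and in limma-voom, against 6 in DESeq2 and 5 in edgeR without WT 2. Their summed level was 399 to 432 CPM in TG libraries and 442 to 711 CPM in WT libraries. WT 2, with the lowest myeloid sum of the WT libraries, had the highest Tspo level. What part these cells have in the Tspo values was not tested.

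Cyp11a1, the side-chain cleavage enzyme (chromosome 9, 57998024 to 58027031, plus strand), was even across animals. It measured 11757, 12299 and 13168 CPM in TG libraries, against 12368, 13859 and 11885 CPM in WT libraries. The groups overlapped over most of their range, and WT 2 was again the highest library, by 1.13 times over the mean of the other 5. TG averaged 12408 ± 712 CPM and WT averaged 12704 ± 1029 CPM (SD, n = 3 each). The log2 fold change was -0.03 with a 95% interval from -0.26 to 0.19 (edgeR adjusted p = 0.9997), which spans 0.838-fold to 1.14-fold.

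The electron carriers overlapped between genotypes. Fdx1, the ferredoxin (chromosome 9, 51943023 to 51963602, minus strand), measured 779, 1024 and 946 CPM in TG libraries and 772, 896 and 843 CPM in WT libraries. Fdxr, its reductase (chromosome 11, 115268024 to 115277101, minus strand), measured 406, 512 and 499 CPM in TG libraries and 420, 471 and 491 CPM in WT libraries. For both genes library 1 of either genotype was the lowest of its group, and TG and WT overlapped. The log2 fold change was 0.13 for Fdx1 (SE 0.11, 95% interval -0.13 to 0.39) and 0.04 for Fdxr (SE 0.11, 95% interval -0.21 to 0.28), with an edgeR adjusted p of 0.9997 each. The log2 ratio of Fdx1 to Fdxr in FPKM had an SD of 0.0797 over the 6 libraries, smaller than the SD of Fdx1 alone (0.148) or Fdxr alone (0.127). This was not particular to the carriers, since the ratio of Fdxr to Hsd3b1 had an SD of 0.0746 and that of Fdx1 to Hsd3b1 0.0873. The ratio of Fdxr to Fdx1 was 0.335, 0.324 and 0.343 in TG libraries and 0.352, 0.336 and 0.380 in WT libraries.

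Hsd3b1, the 3beta-HSD that leads in mouse gonads, was the steadiest member. It measured 9664, 11043 and 10557 CPM in TG libraries, against 9728, 10958 and 10264 CPM in WT libraries. The groups covered almost the same range. EdgeR put its log2 fold change at 0.01 with an SE of 0.10 (95% interval -0.20 to 0.23, adjusted p = 0.9997), and its highest library exceeded its lowest by 1.14 times. Star and Hsd3b6, by contrast, varied by 2.90 and 2.98 times between libraries.

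Hsd3b6, the paralogue known from mouse Leydig cells and adrenal, was low among the tested genes. It had 132, 57 and 62 counts in TG libraries 1 to 3 and 57, 45 and 85 counts in WT libraries 1 to 3. TG 1 stood above all others and WT 2 below, and the remaining libraries overlapped. TG 1 held 7.43 CPM of its library total (95% Clopper-Pearson interval 6.22 to 8.81) and TG 3 held 3.63 (2.78 to 4.65). WT 3 held 4.97 (3.97 to 6.14) and WT 2 held 2.44 (1.78 to 3.26), intervals that cover counting error only. The TG 1 interval lay above that of TG 3, and the WT 3 interval above that of WT 2. TG averaged 4.74 ± 2.25 CPM and WT averaged 3.51 ± 1.32 CPM (SD, n = 3 each). The log2 fold change from edgeR was 0.44 with an SE of 0.36 (95% interval -0.38 to 1.26, adjusted p = 0.9997). Without TG 1 it was -0.02.

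Hsd3b1 and Hsd3b6 lie on the minus strand of chromosome 3 (GRCm38), at 98842356 to 98859794 and 98805504 to 98814443, and could share reads. Their longest open reading frames in the GENCODE transcripts had 1122 bases each and matched at 1010 aligned positions, an identity of 90.0%. The longest identical run was 72 bases, with 38 stretches of 50 bases in common between their transcripts and 0 of 100 bases. All counts of the 7 genes were whole numbers in all libraries, without the fractional counts seen for 8.50% to 9.13% of values in the table. Hsd3b6 held 0.0757%, 0.0296% and 0.0342% of the counts of both genes in TG libraries and 0.0316%, 0.0225% and 0.0486% in WT libraries. Hsd3b6 had its highest count (132) in TG 1, where Hsd3b1 had its lowest (174150). Its lowest count (45) was in WT 2, where Hsd3b1 had its highest (200271). What part misplaced Hsd3b1 reads have in the Hsd3b6 counts was not tested.

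**Figure D2:**
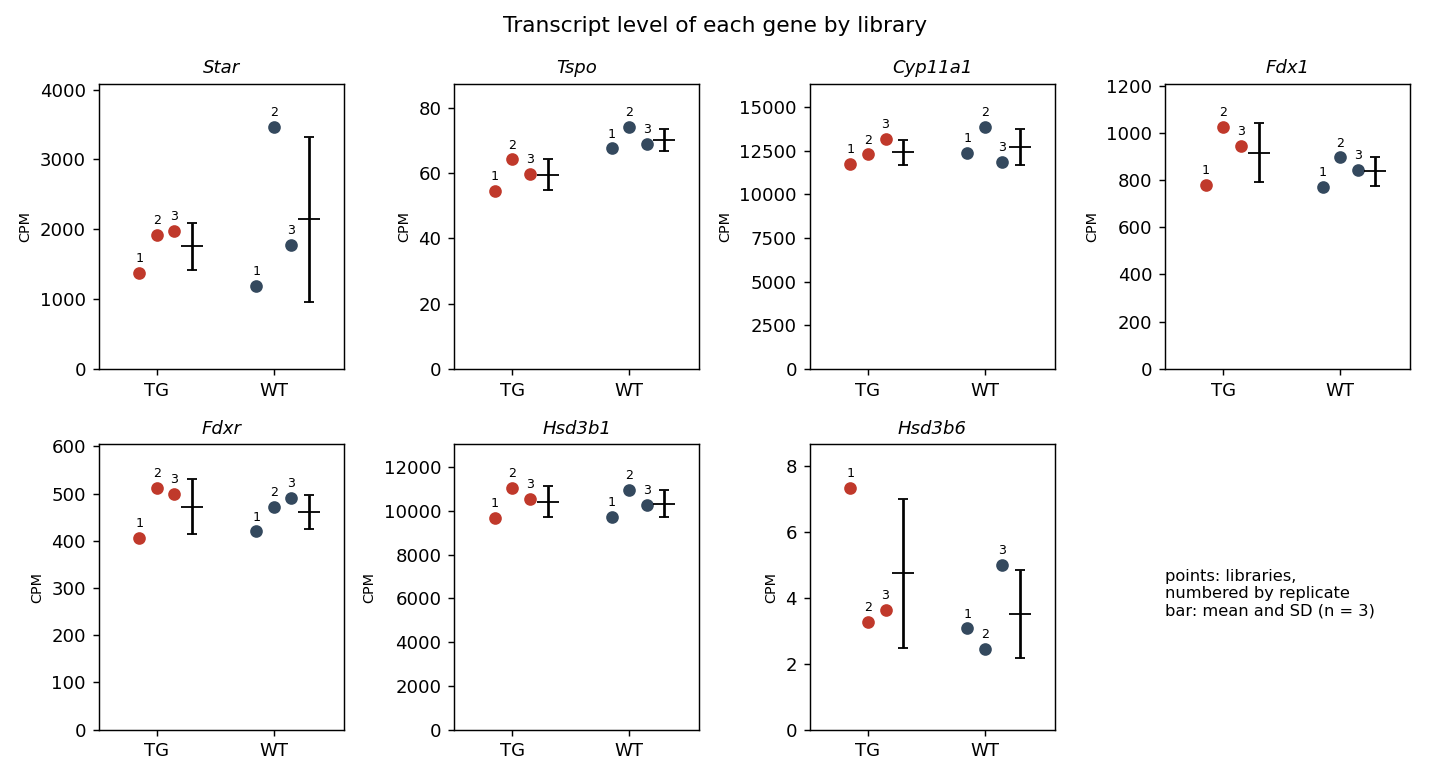
CPM of each of the 7 genes by library, with an axis from 0 in each panel. Points are libraries numbered by replicate, TG left of WT, and the bar gives the mean and SD (n = 3). Tspo is lower in all TG libraries than in any WT library, Star stands out in WT 2 (3463 CPM) and Hsd3b6 in TG 1 (7.33 CPM).

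Ratios between genes of the pathway do not depend on library scaling, and 6 were compared between genotypes. None of the differences passed the test. Fdx1 relative to Cyp11a1 was higher in TG by 0.16 on the log2 scale (mean -3.22 in TG and -3.38 in WT), and Fdxr relative to Fdx1 differed by -0.09 (mean -1.58 in TG and -1.49 in WT). Both had a two-sided exact permutation p of 0.2 and an adjusted p of 0.6 over the 6 ratios. Between libraries of the same number, Fdx1 to Cyp11a1 was higher in TG in 3 of 3 comparisons and Fdxr to Fdx1 lower in 3 of 3. The permutation did not use the numbers, which are not known to mark pairs. The other 4 (Star to Cyp11a1, Hsd3b1 to Cyp11a1, Hsd3b6 to Hsd3b1 and Tspo to Star) had exact permutation p of 0.5 to 0.9. The design cannot give a p below 0.1.

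**Figure D3:**
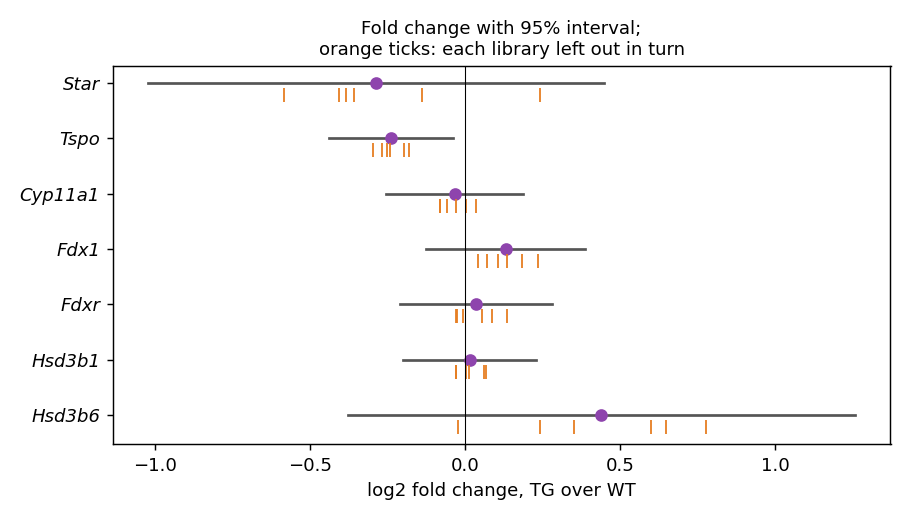
Log2 fold change of the 7 genes, TG over WT. Points are the edgeR estimates, lines their 95% intervals, and orange ticks the estimates with each of the 6 libraries left out in turn. Tspo stays below 0 in all 6, whereas the tick for Star without WT 2 (0.24) and that for Hsd3b6 without TG 1 (-0.02) lie across 0 from their estimates.

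Most sterol synthesis genes had profiles near that of Star across the animals, though most of the 100 nearest profiles belonged to other genes. Profiles were compared as log2 CPM minus the gene's mean over the 6 libraries, and likeness was the root mean square difference from the profile of Star, over the 10288 other genes averaging 10 CPM or more. The nearest were Mvd (0.07), the mevalonate diphosphate decarboxylase, and Dhcr7 (0.09), which makes the last step to cholesterol. Mvd measured 84.1, 128 and 123 CPM in TG libraries and 82.0, 209 and 109 CPM in WT libraries, and Dhcr7 266, 440 and 429 CPM in TG and 262, 766 and 425 CPM in WT. As for Star, WT 2 was the highest library and both libraries numbered 1 were the lowest. Of the 23 sterol synthesis and uptake genes at or above 10 CPM, 21 were among the 100 profiles nearest to Star, with a median rank of 33. The closeness rested largely on WT 2. Without that library 7 of the 23 were among the nearest 100 and their median rank was 330, while leaving out any other library kept 19 to 21. The comparison with sterol genes was singled out after the nearest profiles were seen. The 6 points of each profile come from the same 6 libraries, of which WT 2 stands apart.

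This measure depends on the size of the swings as well as their shape, so an even gene cannot lie near the sterol genes even where its high and low libraries are the same. The nearest profiles of Cyp11a1 were those of Eogt, Gstm4 and Plin3, those of Fdx1 were Nop10, Tmem205 and Lsm6, those of Fdxr were Vat1, Rps16 and Dnajc30, and those of Hsd3b1 were Ndufb11, Trappc3 and Sars, all within 0.0208 on the log2 scale. Tspo lay nearest to Zfp672 (0.03), N4bp1 and Marveld1, and Hsd3b6 nearest to Hhip (0.25), Neb and Spon1. These names depended on the unit. With log2 FPKM profiles, 1 of the 3 nearest stayed the same for Tspo and 2 of 3 for Cyp11a1, Fdx1, Hsd3b1 and Hsd3b6. All 3 stayed the same for Star and Fdxr.

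**Figure D4:**
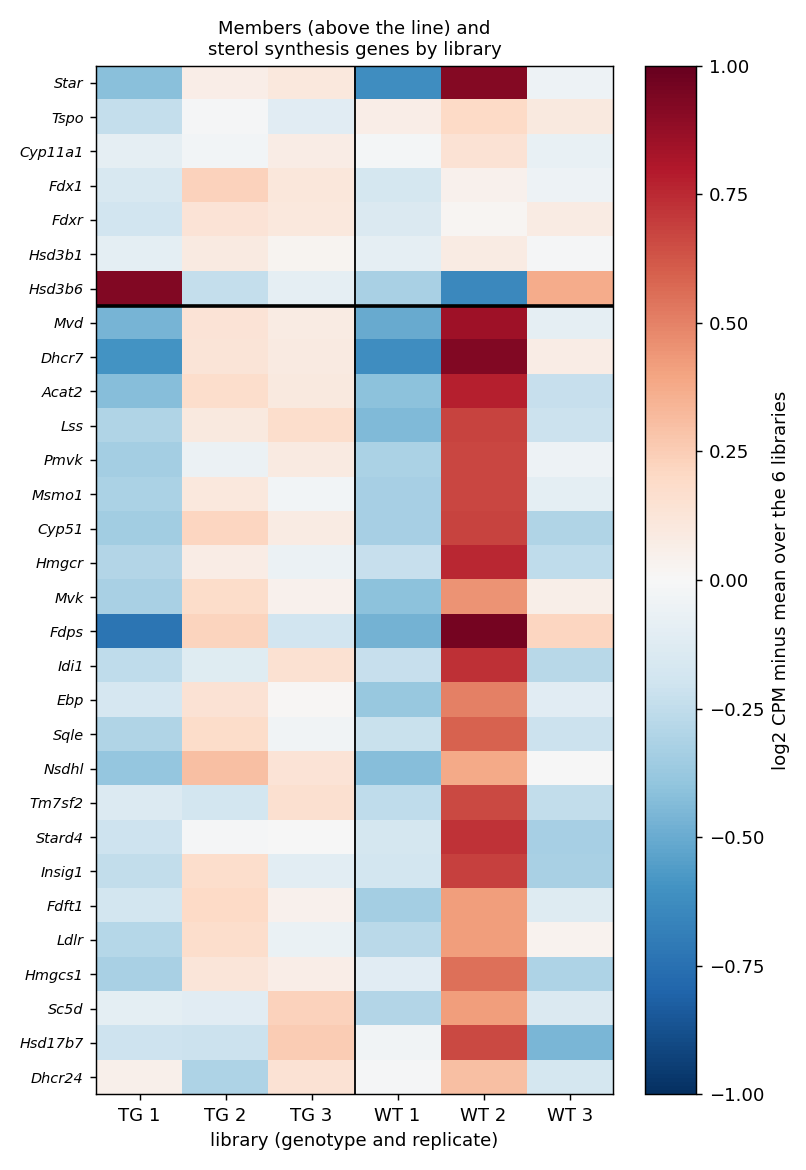
Log2 CPM minus the mean over the 6 libraries, for the 7 genes above the thick line and 23 sterol synthesis and uptake genes below it, ordered by likeness to Star. Columns are TG libraries 1 to 3 and then WT libraries 1 to 3, and red is above the gene's mean. WT 2 is the reddest column for Star and the sterol genes but not for Fdx1, Fdxr, Hsd3b1 or Hsd3b6.

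Sterol genes are the supply side of the pathway, and 23 of the 24 tested were highest in WT 2, against 17.7% of all tested genes. WT 2 was also highest for 9 of 12 endothelial markers, which summed to 901 to 1164 CPM in TG libraries and 1057 to 1369 CPM in WT libraries. It was highest for 5 of 12 luteal markers as well, Scarb1 among them. Luteal sums were 7430 to 8821 CPM in TG and 7760 to 10061 CPM in WT. Scarb1, also listed with cholesterol uptake, held 4230 of the 10061 CPM in WT 2. Akr1c18, Cited4 and Timp1 were lower in WT 2 than in either other WT library. What part endothelial and luteal cells have in the levels of Star and the sterol genes was not tested. In this and the other pathway lists below, DESeq2 and limma-voom also called 0 genes, apart from Cyp17a1 in DESeq2. Their summed level was 6365, 8157 and 8267 CPM in TG libraries and 6584, 12217 and 6934 CPM in WT libraries. In edgeR 0 of the 24 passed and 0 had an unadjusted p under 0.05, with a median log2 fold change of -0.17. Fdps had the smallest p (-0.53), and Pmvk (-0.26) and Dhcr7 (-0.36) were also among the genes with the smallest p. Pmvk and Dhcr7 turned to 0.08 and 0.14 without WT 2. Of 15 genes of cholesterol uptake, storage and efflux 0 passed and 1 had an unadjusted p under 0.05. That gene, Npc2, which moves cholesterol out of lysosomes, measured 305, 386 and 358 CPM in TG and 437, 589 and 405 CPM in WT (log2 fold change -0.45, edgeR adjusted p = 0.622). Abcg1 (-0.22), Apoe (-0.35) and Lipa (-0.14) came next. Scarb1, the HDL receptor, measured 2389, 3678 and 3065 CPM in TG and 2544, 4230 and 3233 CPM in WT, with WT 2 highest and both libraries 1 lowest, as for Star.

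Star is also a target of the LH surge, and the other genes of that response did not stand out together in WT 2. Summed over 13 tested genes without Star they came to 384, 548 and 424 CPM in TG libraries and 477, 496 and 453 CPM in WT libraries, and 1 of the 13, Runx2, was highest in WT 2 (132, 205 and 153 CPM in TG and 173, 213 and 142 CPM in WT). Ptgs2, which makes ovulatory prostaglandins, had 7 to 14 counts in TG libraries and 5 to 10 in WT libraries. In edgeR 0 of the 14 tested members of the list passed and 0 had an unadjusted p under 0.05. Areg, an EGF-like signal of the surge, had the smallest p (0.72, at 0.485 to 1.72 CPM), followed by Rgcc (-0.37) and, after Star, Runx1 (0.12).

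The list of regulators holds activators of the pathway's genes and also repressors such as Nr0b1. Of its 27 genes 0 passed in edgeR and 0 had an unadjusted p under 0.05, with log2 fold changes from -0.17 to 0.23 and a median of 0.03. Nr5a1, the nuclear receptor that drives steroidogenic genes, measured 468, 402 and 444 CPM in TG and 399, 372 and 421 CPM in WT (0.14). Jun had 0.19, the protein kinase A subunit genes Prkar1a and Prkar2b 0.13 and 0.15, and Nr5a2 0.10. WT 2, the library with most Star, had the lowest Nr5a1 level of the 6. Of the 27 regulators, 4 were highest in WT 2, as were 17.7% of all tested genes.

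Partners at the mitochondrial membrane were also close. Of 21 tested genes 0 passed and 0 had an unadjusted p under 0.05, and the median was 0.02. Stard5, a cytosolic sterol carrier related to Star, had the smallest p (-0.21), followed by the acyl-CoA binding protein gene Dbi, whose product binds Tspo (0.15), and the adenine nucleotide carrier genes Slc25a4 (0.14) and Slc25a5 (0.15). Lonp1, the protease that degrades Star protein in the matrix, had -0.06. Tspo2, the erythroid paralogue of Tspo, had 2 counts in TG 1 and 0 in the other libraries. Among other users of ferredoxin and genes of iron-sulphur cluster assembly 0 of 7 passed and 1, Cyp11b1, had an unadjusted p under 0.05. Cyp11b1, the 11beta-hydroxylase and one of the adrenal markers, measured 4.11, 11.1 and 7.52 CPM in TG and 4.37, 4.71 and 4.58 CPM in WT, with TG 1 below all WT libraries (0.73, adjusted p = 0.9997). Lyrm4 (-0.09), Iscu (0.04) and Cyp27a1 (-0.13) had the next smallest p.

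Of the remaining 3beta-HSD family 0 of 2 tested genes passed and 0 had an unadjusted p under 0.05. Hsd3b7, which acts in bile acid synthesis, measured 21.9 to 28.1 CPM in TG and 22.9 to 26.3 CPM in WT (0.02), and the sterol dehydrogenase gene Nsdhl had 0.02. Hsd3b2 had 1 count over all 6 libraries and Hsd3b3 had 8, so neither was tested.

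Downstream of progesterone, Cyp17a1, which turns progestins into androgens in theca cells, was the gene with the smallest p. It measured 583, 707 and 467 CPM in TG and 361, 294 and 408 CPM in WT, without overlap (log2 fold change 0.73, SE 0.16, edgeR adjusted p = 0.115). DESeq2 called it at an adjusted p of 3.15e-04, as did edgeR without TG 3 at 0.0382, and over all alternatives the adjusted p ran from 3.15e-04 to 0.343. Of the 13 theca and interstitial markers, Aldh1a1 measured 2947, 2205 and 2968 CPM in TG and 2546, 1874 and 1822 CPM in WT. The 11 others without Cyp17a1 summed to 359, 279 and 334 CPM in TG and 310, 305 and 327 CPM in WT, which overlapped. Of 15 tested genes downstream edgeR called 0, with 1 at an unadjusted p under 0.05. Pgrmc1, a haem-binding membrane protein, had 0.12. The 5alpha-reductase genes Srd5a1 and Srd5a2 had 0.18 and -0.75, the last at 0.402 to 1.05 CPM in TG and 0.470 to 1.94 CPM in WT. Akr1c18, which inactivates progesterone in luteal cells, measured 35.4, 138 and 9.92 CPM in TG and 44.8, 22.3 and 47.5 CPM in WT. TG 2 was the highest and TG 3 the lowest of the 6 libraries (0.67, 95% interval -0.93 to 2.28).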

How the data were processed

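Per the labels' protocols, total RNA of whole ovaries went onto BGISEQ-500 sequencers. Software listed without roles by the submitters' processing notes comprises Bowtie2, RSEM 1.3.1 and DESeq2 1.4.5, with the build mm10. The annotation and the strandedness are not given in the sources used here. The authors deposited estimated counts of reads per gene and library. A second set of deposited columns has no unit in its header and was read as FPKM, since for 53 well-counted genes with a single transcript of at least 4000 bases the length implied by count and value was 0.959 to 0.961 of the annotated length (median per library). Depth was 17075484 to 18516171 counts. Precision from depth is lowest for Hsd3b6, at 45 to 132 counts.

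Rounded counts went into edgeR 4.0.16 under R 4.3.3 (TMM scaling, low genes removed by filterByExpr at min.count 10 and min.total.count 15, quasi-likelihood test, two-sided, Benjamini-Hochberg over 14124 genes, threshold 0.05). CPM uses the effective library sizes. The standard error is the absolute log2 fold change over the square root of F. The labels do not say whether the replicate numbers in the titles pair the samples. Deviations from the group means (genes of at least 10 CPM) correlated at 0.460, 0.166 and 0.128 for numbers 1, 2 and 3. TG and WT libraries of unlike number correlated at -0.27 to 0.0623. The deviations of a gene within a group cancel out, so these correlations are not independent and do not establish pairs. The main fit has no block. Single values were compared by exact permutation of 20 arrangements. On simulated data (14124 genes, 10 draws), 48.0% of 1.5-fold and 77.7% of 2-fold changes were recovered and 7.71% of calls were false. The series description gives 3 animals per genotype.

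Members and gene lists were chosen with earlier results of these data known. Named genes were the 7 members, Dennd1a, up to 4 genes per pathway list with the smallest p, and the 3 nearest profiles of each member, some of which are not reported here. Others named (Nr5a2, Foxl2, Scarb1, Lonp1, Akr1c18, Hsd3b2, Hsd3b3, Tspo2, Ptgs2, Adipoq, Cyp21a1, Mc2r, Eef1a1, Runx2, Nr0b1, Aldh1a1) were chosen after their values were seen. Alternatives were other scalings and filters, the replicate block, each library left out, DESeq2 1.42.0, limma-voom and limma-trend (limma 3.58.1) on log2(FPKM + 1) and log2(FPKM + 0.1). Promoter windows and gene positions come from RefSeq tables of GRCm38.p6, transcripts from GENCODE M21, aligned with Biopython 1.88.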

Additional observations from a re-analysis of the deposited data

How the results depend on the processing

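None of the 7 genes passed in any of 18 alternatives. In simulation at this size, with changes placed in genes drawn at random from all tested, 48.0% of 1.5-fold changes were recovered. That rate is not specific to these 7 genes, which differ in level and spread. DESeq2 called 11 genes higher in TG in place of 5. DESeq2 and the fit without TG 3 called 1 downstream gene, Cyp17a1, which gives a range of 0 to 1 with single libraries left out. With single libraries left out, log2 fold changes ran from -0.58 to 0.24 for Star, from -0.081 to 0.033 for Cyp11a1, from -0.031 to 0.13 for Fdxr, from -0.030 to 0.066 for Hsd3b1 and from -0.022 to 0.78 for Hsd3b6. Those of Tspo (-0.30 to -0.18) and Fdx1 (0.04 to 0.23) kept their sign. Differences in mean log2 CPM ran from -0.52 to 0.25 for Star, from -0.079 to 0.032 for Cyp11a1, from -0.034 to 0.14 for Fdxr and from -0.029 to 0.067 for Hsd3b1. Log2 ratios ran from -0.030 to 0.67 for Hsd3b6 to Hsd3b1, from -0.47 to 0.22 for Star to Cyp11a1, from -0.0061 to 0.089 for Hsd3b1 to Cyp11a1 and from -0.46 to 0.25 for Tspo to Star. SDs of log2 CPM over libraries ran from 0.32 to 0.60 for Star and from 0.37 to 0.63 for Hsd3b6, added after seeing the data. Other genes that changed sign were Hsd3b7 (-0.087 to 0.10), Nsdhl (-0.16 to 0.25), Iscu (-0.017 to 0.080), Cyp27a1 (-0.34 to 0.13), Runx1 (-0.0091 to 0.21), Pmvk (-0.45 to 0.085) and Dhcr7 (-0.66 to 0.14). With TG 2 and WT 3 both left out, the log2 fold change was -0.034 for Hsd3b1, -0.14 for Nsdhl, 0.21 for Cyp27a1 and 0.13 for Apoe. Hsd3b6 kept its sign in that fit, at 0.98 (edgeR unadjusted p = 0.0327, adjusted p = 0.684). The cause of these sign changes was not tested. With the replicate block the log2 fold change was -0.16 for Star and -0.24 for Tspo (edgeR adjusted p = 0.406, unadjusted p = 0.0091), and the block changed no call among the 7 genes. The unadjusted edgeR p of Tspo was 0.103 without TG 1, 0.0621 without TG 3 and 0.08 without WT 2. It was 0.0132, 0.0304 and 0.0329 without TG 2, WT 1 and WT 3.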

Other observations

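Libraries numbered 1 were low for several of these genes in both genotypes. TG 1 and WT 1 were the lowest of the 6 libraries for 4 of the 7 (Star, Fdx1, Fdxr and Hsd3b1), as they were for 11.9% of all tested genes. Compared number by number, TG minus WT in log2 CPM was 0.20, -0.85 and 0.15 for Star and -0.31, -0.21 and -0.21 for Tspo. The labels do not say what the numbers stand for.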
